A study of Mus musculus with 8 samples.

Results

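miR-103 and miR-107 are near-identical microRNAs (miRNAs) processed from precursors within pantothenate kinase genes. They are the 2 names, of 611 mouse miRNAs on the array, that the scanner files list as mmu-miR-103 and mmu-miR-107. The members were matched by name, but the pair was also selected on its log2 change between obstructed and control kidneys, which was already known, so that difference is given as a description and no test of it is reported. The study measured miRNAs on Agilent 1-colour arrays in ICR mice, an outbred strain, 7 days after the ureter of 1 kidney had been tied off (unilateral ureteral obstruction, UUO). The 4 UUO kidneys are the obstructed kidneys, and the 4 control kidneys are contralateral kidneys without obstruction, so both groups come from mice that underwent surgery. The labels give neither the age nor the sex of the mice, and nothing in them says that the kidneys of a group came from separate mice.

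miRNAs are short RNAs that guide the Argonaute protein to messenger RNAs, mostly by pairing of the seed, the bases near their 5′ end, and so lower the output of the messenger. Pantothenate kinase catalyses the first committed step of coenzyme A synthesis, and the miRNAs of its genes are described in lipid and insulin metabolism and as regulators of Dicer, the enzyme that makes mature miRNAs. In a whole kidney a lower miRNA signal can come from fewer cells of a type or from less RNA per cell, and these cannot be told apart here.

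The mature sequences show how little separates the members, and were taken from RefSeq (build GRCm38.p6), where both members matched by name. Capitals mark the seed, bases 2 to 8 from the 5′ end.
miR-103: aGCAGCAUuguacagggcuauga
miR-107: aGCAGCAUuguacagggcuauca
Both are 23 bases long and share 22 of them, the whole seed included. The substitution from miR-103 to miR-107 is G22C, counted from the 5′ end, which is the last base but 1. In the same RefSeq table, these were the 2 mature mouse miRNAs with this seed among 1679 names.

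The hairpin precursors show that the same mature miR-103 is made from 2 genes and miR-107 from another. Capitals mark the mature strand.
Mir103-1: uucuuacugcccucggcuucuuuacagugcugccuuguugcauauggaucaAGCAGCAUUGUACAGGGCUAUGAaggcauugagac
Mir103-2: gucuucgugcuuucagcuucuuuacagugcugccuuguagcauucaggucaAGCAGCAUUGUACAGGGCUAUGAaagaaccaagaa
Mir107: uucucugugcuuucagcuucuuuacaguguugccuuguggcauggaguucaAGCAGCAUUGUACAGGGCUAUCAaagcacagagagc
In the GRCm38.p6 gene table, Mir103-1 lies within Pank3 on chromosome 11, Mir103-2 within Pank2 on chromosome 2 and Mir107 within Pank1 on chromosome 19. The array signal of miR-103 therefore cannot be divided between Pank3 and Pank2. The opposite strands of these hairpins and the messenger RNAs of the pantothenate kinases are not analysed here.

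Each member was read by 2 probes with 10 spots each, and all 4 probes were well above background on all 8 arrays. The spots of a probe varied on an array with a coefficient of variation of 2.83% to 22.3% (median 7.37%), and 8 of 320 spots were marked as outliers and left out. Most of these were miR-103 spots on UUO kidney 2, with 2 left out for one miR-103 probe and 3 for the other. Before scaling, the summed signal of miR-103 was 1895, 1179, 2092 and 2222 intensity units on control kidneys 1 to 4 and 1831, 1207, 3840 and 3952 on UUO kidneys 1 to 4. That of miR-107 was 4497, 3366, 4396 and 5726 on the control arrays and 2830, 3063, 6215 and 5701 on the UUO arrays. The unscaled signals of both members overlapped between the groups, and UUO kidneys 3 and 4 were the brightest of their group for both. Those same arrays were bright as a whole, since the 75th percentile of probes well above background on all arrays, by which each array was scaled, was 417 to 582 on control arrays and 689, 514, 1403 and 1595 on UUO kidneys 1 to 4.

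The array of UUO kidney 2 stood apart from its group before any result on the members is considered. Over the 222 tested miRNAs, its mean correlation was 0.964 with the control arrays and 0.887 with the other UUO arrays, while the other UUO arrays were at 0.902 to 0.927 and 0.937 to 0.943. As a check of the tissue, all 6 kidney tubule miRNAs of a fixed list were tested. Of these, 2, miR-192 and miR-194, were called lower in UUO kidneys and 0 higher (limma, Benjamini-Hochberg adjusted p under 0.05), beside 13.5% of all tested miRNAs called lower. The log2 changes of the 6 ran from -1.31 (miR-194) to 0.0043 (miR-10a). Leaving out UUO kidney 2, 4 were called lower, beside 30.2%. Their summed scaled level was 37.9 to 42.6 on control arrays and 22.5 to 30.8 on UUO arrays, with UUO kidney 2 the highest of the latter. Of 7 leukocyte miRNAs on the array, 5 were tested, and their list summed to 1.99 to 2.71 on control arrays, 1.88 on UUO kidney 2 and 6.84 to 7.69 on the other UUO arrays. Of these 5, 0 were called (limma; 3 at an unadjusted p under 0.05), beside 14.9% of all tested miRNAs called in either direction. With UUO kidney 2 left out, all 5 were called higher, beside 20.7%. Of the endothelial miRNAs 1 of 2 tested was called lower, and of the erythroid, striated muscle, smooth muscle and brain lists 0 of 2, 0 of 1, 0 of 1 and 0 of 1 tested miRNAs were called (limma; 0, 1, 0 and 0 at an unadjusted p under 0.05). The erythroid sum ran from 5.17 to 44.6 on control arrays and from 5.16 to 24.4 on UUO arrays. The liver miRNA miR-122, the brain miRNA miR-124 and the pancreas miRNAs miR-216a and miR-217 were above background on no array. The other miRNAs of the brain and pancreas lists, miR-9 and miR-375, were above background on some arrays, and miR-375 was not tested. The pancreas sum was 0.065 to 0.12 on control arrays, 0.064 on UUO kidney 2 and 0.16 to 0.19 on the other UUO arrays. Values without UUO kidney 2 stand beside the changes of the members, their probes and their ratio.

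Relative to the 75th percentile of each array, miR-107 was lower on every UUO array than on every control array. Its log2 scaled signal was 3.13, 3.01, 2.99 and 3.30 on control kidneys 1 to 4 and 2.04, 2.57, 2.15 and 1.84 on UUO kidneys 1 to 4. UUO kidney 2 was the highest of its group and UUO kidney 4 the lowest, and the control kidneys lay closer together than the UUO kidneys. The group means were 3.11 ± 0.14 in control and 2.15 ± 0.31 in UUO kidneys (SD, n = 4 each). The log2 change was -0.96 ± 0.18 (SE from limma, n = 4 each), a level 1.94-fold lower. Without UUO kidney 2 it was -1.10 ± 0.13 (SE, n = 3 and 4), or 2.14-fold lower.

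miR-103 was also lower on every UUO array than on every control array, by a smaller amount. Its log2 scaled signal was 1.88, 1.50, 1.92 and 1.93 on control kidneys 1 to 4 and 1.41, 1.23, 1.45 and 1.31 on UUO kidneys 1 to 4. Control kidney 2 lay well below the other control kidneys and only just above UUO kidney 3. UUO kidney 2, which had the highest miR-107 of its group, had the lowest miR-103 of all 8 arrays. The group means were 1.81 ± 0.21 in control and 1.35 ± 0.10 in UUO kidneys (SD, n = 4 each). The log2 change was -0.46 ± 0.15 (SE from limma, n = 4 each), a level 1.37-fold lower, and -0.42 ± 0.14 without UUO kidney 2 (SE, n = 3 and 4).

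**Figure D1:**
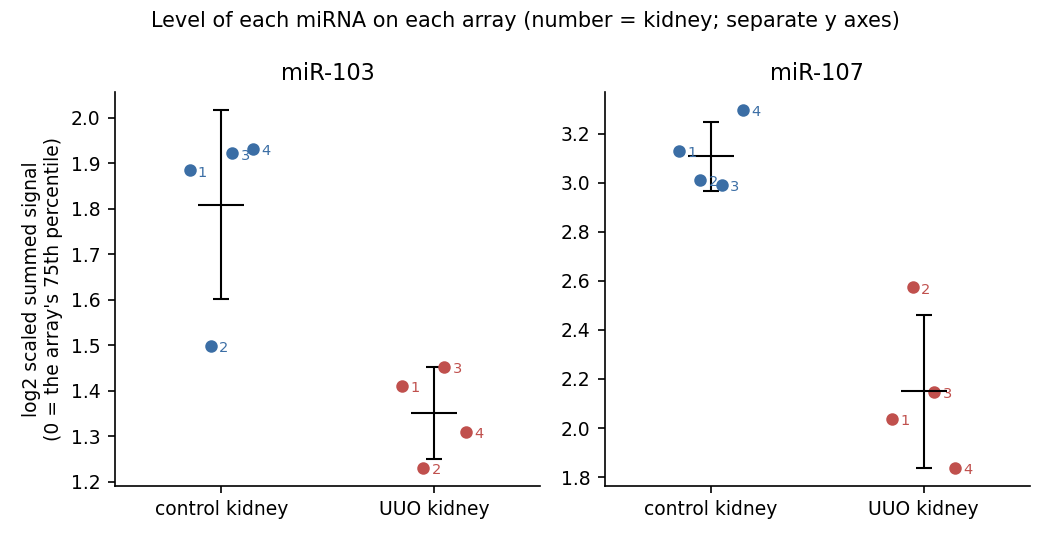
The log2 scaled summed signal (vertical axis, 0 at the array's 75th percentile) of miR-103 and miR-107 on each array, with the kidney number beside each point and bars for the mean ± SD of 4 arrays. The 4 UUO arrays lie below the 4 control arrays in both panels, by group means of 1.35 against 1.81 for miR-103 and 2.15 against 3.11 for miR-107; the panels have separate axes because the probes of different miRNAs are not comparable in level.

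These changes are relative to bright miRNAs of the same array, and the direction of miR-103 depended on that scaling. Without scaling, the log2 change of miR-103 was 0.42 and that of miR-107 was -0.078, and the median of all tested miRNAs was 0.74 in place of -0.14. Set against the median of all tested miRNAs, the scaled change was -0.32 for miR-103 and -0.82 for miR-107. This offset also depended on the background correction. With normexp background correction, the median was -0.62, miR-103 was at -0.40 and miR-107 at -0.83. There miR-103 fell less than the median miRNA, and miR-107 still fell more. Of the 222 tested miRNAs, 61 had a lower change than miR-103 and 20 a lower change than miR-107.

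All 4 UUO arrays lay below all 4 control arrays for 2 of 2 members, beside 21.2% of all tested miRNAs, and 23.0% had no overlap in either direction. Since the members were selected on this contrast, nothing is read from that count. With any single array removed, the log2 change lay between -0.56 and -0.42 for miR-103 and between -1.10 and -0.85 for miR-107. The slide carried the arrays in 2 rows, with kidneys 1 and 2 from each group in row 1 and the rest in row 2. Within row 1 the log2 change was -0.37 for miR-103 and -0.77 for miR-107, and within row 2 it was -0.55 and -1.15 (2 against 2 arrays each).

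The ratio of miR-107 to miR-103 within an array does not depend on any factor applied to the whole array. Its absolute value has no meaning, because the probes differ, so it is given as log2 of the ratio minus the control mean. It was -0.052, 0.21, -0.23 and 0.067 on control kidneys 1 to 4 and -0.67, 0.045, -0.60 and -0.77 on UUO kidneys 1 to 4. UUO kidneys 1, 3 and 4 lay below every control kidney, and UUO kidney 2 lay among the control kidneys, so the groups overlapped. The mean over UUO kidneys was -0.50 ± 0.37 against 0 ± 0.19 in control kidneys (SD, n = 4 each), a ratio 1.41-fold lower. Without UUO kidney 2 it was -0.68, or 1.60-fold lower. The same arrays whose ratio was low had the high leukocyte sums, and UUO kidney 2 had neither; the part of other cell types in the ratio was not tested.

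The probes of miR-107 were both lower in UUO kidneys, but by different amounts. The brighter probe, A_54_P1420, had a log2 scaled signal of 2.56, 2.49, 2.48 and 2.74 on control kidneys 1 to 4 and 1.61, 2.04, 1.71 and 1.44 on UUO kidneys 1 to 4, a difference of group means of -0.87. The dimmer probe, A_54_P1421, was at 1.51, 1.30, 1.26 and 1.66 on control arrays and 0.088, 0.87, 0.21 and -0.20 on UUO arrays, a difference of -1.19. For both probes all UUO arrays lay below all control arrays, and UUO kidney 2 was the highest UUO array. These differences were -0.98 and -1.40 without UUO kidney 2. The difference between the changes of these probes was 0.32 over all 8 arrays. Among 150 tested miRNAs with at least 2 probes above background on all arrays, the changes of the 2 brightest probes differed by a median of 0.056, and 7 miRNAs had a larger difference than miR-107.

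The probes of miR-103 differed by 0.059 in their change, close to that median. The brighter probe, A_54_P1341, was at 1.55, 1.19, 1.63 and 1.60 on control kidneys 1 to 4 and 1.13, 0.92, 1.16 and 0.97 on UUO kidneys 1 to 4, a difference of -0.45. The dimmer probe, A_54_P1342, was at -0.39, -0.86, -0.51 and -0.36 on control arrays and -1.10, -1.15, -0.97 and -0.94 on UUO arrays, a difference of -0.51. They were -0.41 and -0.47 without UUO kidney 2. Control kidney 2 was the lowest control array and UUO kidney 2 the lowest UUO array for both probes, an order that the miR-107 probes did not share.

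**Figure D2:**
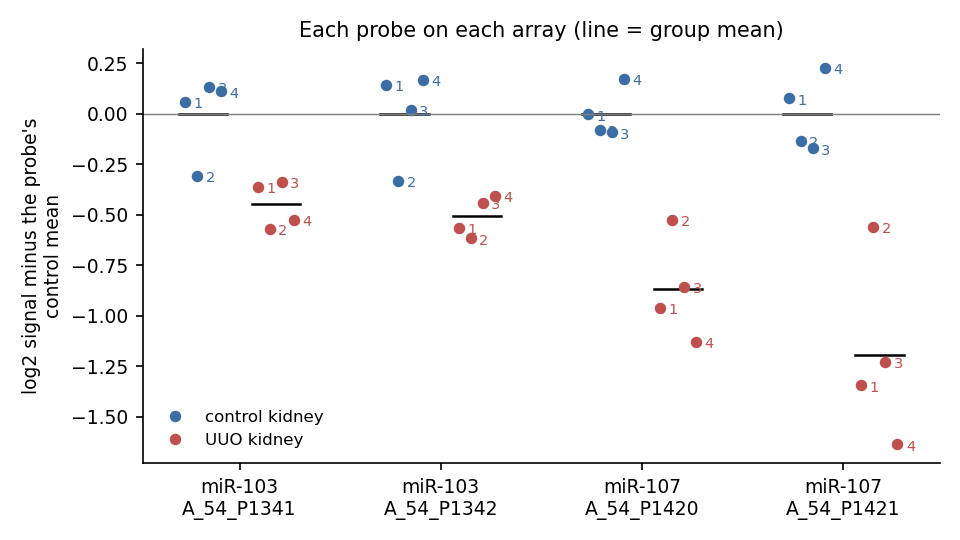
The log2 signal of each of the 4 probes minus its own control mean (vertical axis) on each array, blue for control and red for UUO kidneys, with kidney numbers beside the points and lines for group means. The UUO means are -0.45 and -0.51 for the miR-103 probes and -0.87 and -1.19 for the miR-107 probes, and UUO kidney 2 is the lowest red point for miR-103 and the highest for miR-107.

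Near-identical miRNAs can bind each other's probes (cross-hybridisation), and the members' sequences above differ only near the 3′ end. Ratios between the 4 probes show how far their signals moved apart. Over the 8 arrays, the log2 ratio of the miR-103 probes to each other had an SD of 0.11 and that of the miR-107 probes 0.22, while the 4 ratios between a probe of miR-103 and a probe of miR-107 had SDs of 0.32 to 0.54. In the control kidneys alone the SDs were 0.091 and 0.079 within a miRNA and 0.17 to 0.21 between the miRNAs. The ratio of the dimmer to the brighter miR-107 probe was itself lower on UUO kidneys 1, 3 and 4, by -0.38, -0.37 and -0.51 from the control mean, and at -0.036 on UUO kidney 2. The probe sequences are not used here, and how much of either member's signal came from the other was not tested.

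Other near-identical miRNAs on the array give a scale for the difference between the members. Of the tested miRNAs, 96 were matched to a RefSeq mature sequence by name and arm, and 25 other pairs had sequences that differ at 1 or 2 positions or by up to 2 bases at 1 end. The log2 changes of these pairs differed by a median of 0.37, against 0.50 for miR-103 and miR-107, and 10 pairs differed by more. Most of these pairs were of let-7 miRNAs and miR-98 and shared members such as let-7a. The pairs are therefore not independent, and their median leans on that family. Tested miRNAs outside the 96 were not searched, so other near-identical pairs may be missing from these counts and medians. Without UUO kidney 2 the median was 0.43 against 0.68 for the members, and 9 pairs differed by more. Over all 8 arrays the range was from 0.014, between let-7a and let-7c, to 1.52, between let-7g and let-7i. Ratios did not overlap between the groups for 7 of all 26 pairs (26.9%), and miR-107 over miR-103 was not among them.

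For the 11 other pairs that differ at 1 position, some of them again of let-7 miRNAs that share members, the median difference was 0.48, and 4 pairs exceeded the members. These pairs, chosen after their values were seen, were miR-29a and miR-29c (0.60), let-7a and let-7e (0.60), miR-100 and miR-99a (0.55), and miR-30a and miR-30e (0.52). Their differing base is at position 10, 9, 16 and 13 from the 5′ end, in that order. Position 22 of 23 in the members was nearer to the 3′ end than in any of these 11 pairs, the next being position 19 of 21 in miR-27a and miR-27b, whose changes differed by 0.48. Without UUO kidney 2, the median difference of the 11 pairs was 0.53, and 3 of them exceeded the members.

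**Figure D3:**
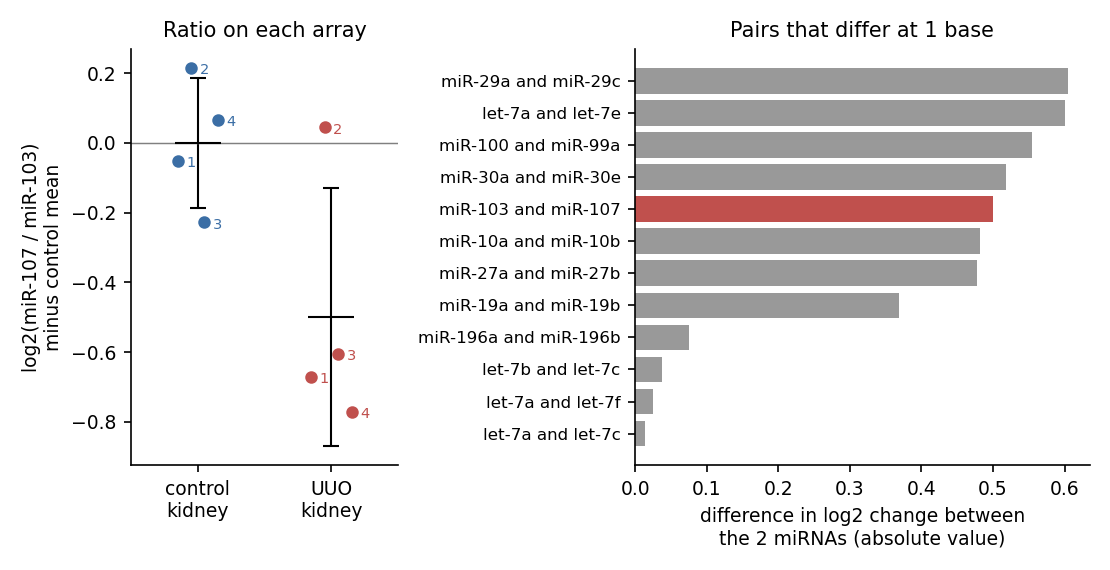
Left, log2 of miR-107 over miR-103 minus the control mean (vertical axis) on each array, with kidney numbers and mean ± SD of 4 arrays. Right, absolute difference in log2 change (horizontal axis) for each pair that differs at 1 base, among the 96 tested miRNAs matched to a sequence. UUO kidneys 1, 3 and 4 lie at -0.77 to -0.60 and UUO kidney 2 at 0.045 among the control kidneys, and the bar of miR-103 and miR-107, at 0.50, lies below those of 4 pairs and above those of 7.

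The pattern of the members over the 8 arrays was not most like each other's. Across the 8 arrays, which share the scaling and the group difference, the Pearson correlation of their log2 scaled signals was 0.777, which placed miR-107 at rank 36 among the other 221 tested miRNAs for miR-103, and miR-103 at rank 56 for miR-107. The miRNAs most like miR-107 were miR-29c (r = 0.991), of the collagen-targeting miR-29 family, the epithelial miR-203 (0.991), miR-365 (0.988), miR-185 (0.984) and miR-29c* (0.981). Their log2 changes lay between -1.23 and -0.93. Those most like miR-103 were let-7a (0.960), let-7c (0.956), miR-196b (0.953), let-7d (0.952) and miR-615-3p (0.944), with log2 changes between -0.83 and -0.25.

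The miR-15 and miR-16 group shares the letters AGCAGC with the members, shifted by 1 base, and is shown to compare its 5′ end with theirs. These miRNAs are known as repressors of cell cycle genes. Capitals mark AGCAGC, which starts at base 2 here and at base 1 in miR-103 and miR-107.
miR-15a: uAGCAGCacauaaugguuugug
miR-15b: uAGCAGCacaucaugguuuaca
miR-16: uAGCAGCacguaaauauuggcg
miR-195: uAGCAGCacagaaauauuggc
miR-322: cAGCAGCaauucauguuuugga
miR-497: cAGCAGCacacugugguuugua
miR-503: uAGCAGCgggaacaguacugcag
In 6 of the 7 the next letter is also that of the members, which makes 7 shared letters in a row, and in miR-503 the shared run ends after 6. All 7 were tested, and 0 were called in either direction (limma, adjusted over all tested miRNAs), beside 14.9% of all tested miRNAs. At an unadjusted p under 0.05 (limma) it was 1 of the 7, beside 81 of 222. With so few miRNAs, nothing is read from these counts. Their median log2 change was 0.14, against -0.14 over all tested miRNAs. The 4 with the highest mean signal had log2 changes of -0.013 ± 0.18 (miR-15a), 0.16 ± 0.27 (miR-16), 0.64 ± 0.26 (miR-15b) and 0.14 ± 0.20 (miR-195; SE, n = 4 each). Without UUO kidney 2, 3 of the 7 were called higher, namely miR-15b at 0.88, miR-195 at 0.33 and miR-497 at 0.50, beside 20.7% of all tested miRNAs called higher, and 0 were called lower.

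**Figure D4:**
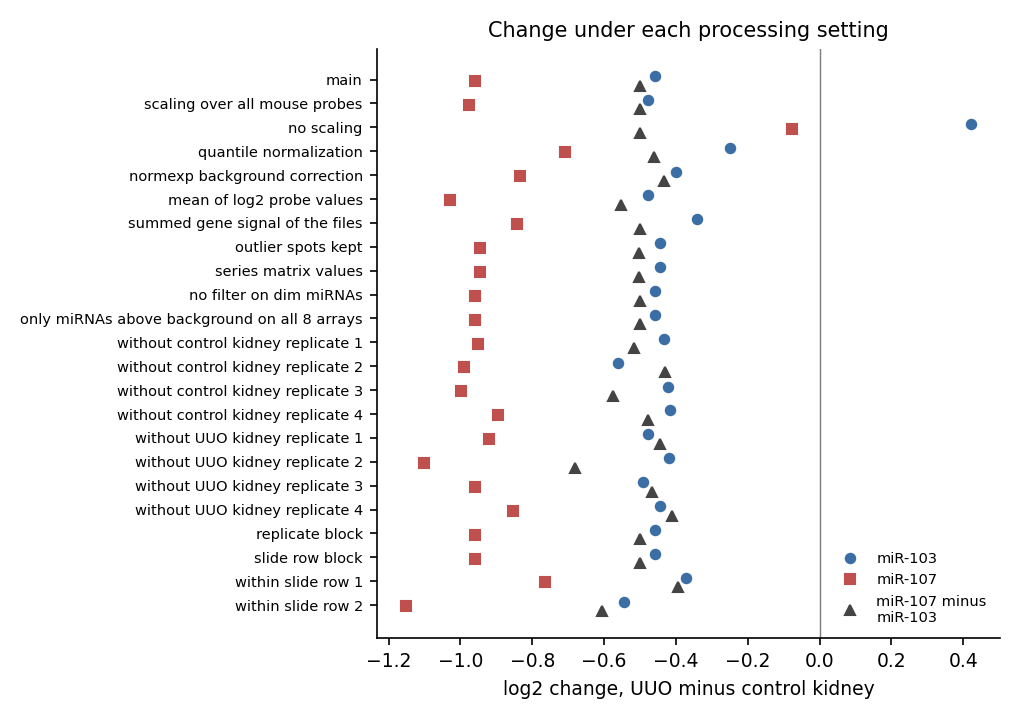
The log2 change, UUO minus control kidney (horizontal axis), of miR-103 (circles), miR-107 (squares) and the difference between them (triangles) under each processing setting (vertical axis). The difference stays between -0.68 and -0.39 over all settings, while without scaling miR-103 lies at 0.42 and miR-107 at -0.078.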

How the data were processed

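The authors deposited 1 Agilent Feature Extraction file per array. The file headers name version 10.7.3.1 of that software, and the submitters' processing notes name 10.1.1. The intensity values used are processed spot signals, from which the software had subtracted local background, per the file headers; arrays had not been scaled to each other. Deposited marks (other values, 0 or 1 per spot) flag saturated spots, outliers and spots well above background. The deposited series matrix held the same intensity values. All 8 arrays lay on 1 slide, and 100 ng of RNA per sample was labelled with Cy3, per the labels.

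Outlier spots (2.34% to 3.52% of 13000 spots that are not controls) were left out, and spots of a probe averaged. Scaling divided an array's signals by the 75th percentile of the 371 probes well above background (over 50% of spots) on all arrays. Probes of a miRNA were summed, a floor of 0.0213 set and log2 taken. A limma fit took the 222 mouse miRNAs detected on all 4 arrays of either group, with limma 3.58.1 (R 4.3.3). The step was tested on simulated data. The simulated arrays had independent errors and none stood apart as UUO kidney 2 did, so they say nothing about calls under that condition. Python 3.11.15 with numpy 2.4.6, pandas 2.3.3 and matplotlib 3.10.9 served for sequences, probe pairs and plots.

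The members, the lists and the alternatives were chosen with earlier results of these data known. The naming rule took the members and their probes, up to 4 miRNAs of the AGCAGC group by mean signal, the 5 miRNAs most correlated with each member, and the near-identical pairs with the smallest and the largest difference. Lists of tubule, leukocyte, erythroid, muscle, endothelial, brain, liver and pancreas miRNAs served to check the tissue. Spread between kidneys of a group may be technical, so calls judge the difference of group means only against the spread between these samples. Array number and signal limit the precision.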

Additional observations from a re-analysis of the deposited data

Results flagged for a closer look

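For miR-103, control kidney 2 lay far below the other control kidneys, at a log2 scaled signal of 1.50. Its gap to the nearest control kidney was 0.890 of the range of the group, above Dixon's 95% critical value for 4 samples. It was the only array past that value in 14 groups of 4 checked (both members, their probes and their ratio), and chance gives about 5% of groups. Control kidney 2 was also the dimmest control array, with a 75th percentile signal of 417.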

How the results depend on the processing

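The alternatives moved the log2 change of either member, and the difference between them, by less than the spread between replicates, with 2 exceptions. For filters on dim miRNAs and for blocks this holds by construction, as it does for the difference when an array is scaled by a constant, so those settings say nothing about stability. The exceptions were no scaling, with 0.42 for miR-103 and -0.078 for miR-107, and quantile normalization, with -0.25 and -0.71; scaling sets the former by its construction, and the cause of the latter was not tested. Leaving out each array in turn gave -0.56 to -0.42 for miR-103, -1.10 to -0.85 for miR-107 and -0.68 to -0.41 for their difference. The number of miRNAs called by limma, 33 in the main setting, was 0 with scaling over all mouse probes (56 at an unadjusted p under 0.05), 0 with normexp on the median spot and background signals (54), 3 without scaling, 3 with quantile normalization, 3 with the summed gene signal of the files and 17 without a filter on dim miRNAs. It was 69 within slide row 2 and 0 within slide row 1 (1 at an unadjusted p under 0.05). Leave-one-out fits called 0 to 113. With the replicate number as a block it was 0 (67 at an unadjusted p under 0.05), with -0.46 for miR-103, -0.96 for miR-107 and -0.50 for their difference. The labels do not say whether same-numbered kidneys came from the same mouse. The deviations of same-numbered kidneys had correlations of -0.35, 0.22, 0.62 and 0.015 for numbers 1 to 4, and since not every pair was above 0.1 the numbers were not taken as pairs. Kidneys with different numbers had correlations from -0.60 to 0.57, so this check cannot tell whether the kidneys were paired by mouse. The mean spot signal named beforehand for normexp was replaced by the median spot signal, the column used here. All member probes were above background on all arrays, so the floor did not touch them.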
